A study of Rattus norvegicus with 6 samples.

Results

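A group of 37 oligonucleotide probes on a rat expression array carried stretches of sequence that many probes had in common. A probe was counted when its 60 bases held at least 1 stretch of 25 bases that occurred, on the same strand, in more than 10 different probes. Of 45751 probes, 37 met this rule, and probes linked by a shared stretch formed 2 families, of 20 and 17 probes. The arrays held 1598824 distinct stretches of 25 bases, and 31 of these were repeated in more than 10 probes. Of the 31, 15 lay just inside the limit, in 11 probes each, and 15 further stretches lay just outside it, in 10 each. Those 15 added no probe, and the members stayed 37 down to a limit of more than 8 probes.

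The RNA came from INS-1, an insulin-secreting line from a rat insulinoma that stands in for beta cells of the pancreas. Treated cells received geniposide at 10 µmol/L over 24 h, and the controls were untreated. Geniposide is an iridoid glucoside of gardenia fruit, which the labels call a GLP-1 receptor agonist, and the arrays asked which RNAs differ between the groups. Each group had 3 arrays, and no genetic change is named for either. No label states that replicates were separate cultures, so p-values reflect the spread between these samples and that spread may be technical.

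A short probe cannot tell transcripts apart where they share its sequence. Mammalian genomes hold a few common sources of such sequence. Retrocopies of highly expressed genes are reverse-transcribed messenger RNAs put back into the genome, where they collect substitutions. Short interspersed elements, such as the B2 elements of rodents, are small repeats derived from a transfer RNA gene, present in a very large number of copies and often carried inside longer transcripts. Copies of either kind can lie in transcripts that are annotated as long noncoding RNA. The files do not pair the probes with genes or genome positions, so no gene is named here and exon or intron positions were not analysed here.

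The consensus of each family shows what its probes have in common. Both are printed 5′ to 3′ as on the array, with the stretch found in most members in capitals. In family 1 this stretch lay at positions 32 to 56 of a 60-base consensus and occurred unbroken in 12 of 20 probes. In family 2 it was a run of 26 bases at positions 2 to 27 of a 53-base consensus and occurred in 17 of 17 probes.
Family 1 consensus: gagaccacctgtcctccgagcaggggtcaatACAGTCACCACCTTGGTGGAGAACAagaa
Family 2 consensus: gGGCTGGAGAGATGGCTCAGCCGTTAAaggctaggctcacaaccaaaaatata
The 2 consensus sequences differ in kind. Family 1 contains 8 of the repeated stretches and family 2 contains 23. The opening run of family 2, ggctggagagatggctcag, resembles the head of a rodent B2 element by textbook knowledge. The rest of its consensus was not matched to any repeat or RNA, so the family is not named as B2. Below, element means only the sequence its probes share. No repeat library was used here.

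Neither family was a simple repeat. The best short period, of up to 6 bases, accounted for 35.1% to 42.1% of the bases of family 1 probes and for 27.1% to 38.9% of those of family 2 probes, with 80% needed for the name. The median over all probes was 35.1%. The 2 families did differ in what flanks the repeated stretch. In family 1 the bases outside the longest run that a pair of probes shares also matched, at 80% or more of at least 10 bases, in 154 of 184 comparable pairs, or 83.7%, with a median flank identity of 87.5%. In family 2 this held for 8 of 63 pairs, or 12.7%, and the bases upstream of the element matched at a median of 28.6% over 136 pairs. Family 1 thus consisted of variants of a single 60-base sequence, and family 2 of a common element joined to unrelated sequence.

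GC content was 50% to 55% in family 1 and 45% to 53.3% in family 2, above the median of 41.7% over all probes. The dinucleotide CG occurred in 15 of 20 and 17 of 17 probes, against 51.3% of all probes. In family 2 it lies within the run that defines the family. The polyadenylation hexamer AATAAA was found in 0 of 20 probes of family 1 and in 2 of 17 of family 2, against 15.5% of all probes. The probes were searched as printed, on the probe strand. No probe on the array, 0 of 45751, held the reverse complement of any repeated stretch. In the RefSeq promoter windows of the GRCr8 assembly, 33469 windows of 300 bases, 0 held a family 1 stretch on either strand. There were 3 windows with a family 2 stretch, all on the probe strand, or 0.00896% of windows.

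The signals of both families were high and were read on every array. Each of the 37 probes stood well above background on 6 of 6 arrays, as did 60.1% of the 45718 probes analysed, and no probe spot was saturated or marked as an outlier in either family. Levels are log2 processed intensity minus the 75th percentile of the array, so a level of 0 is the signal at that percentile. Mean levels ran from 2.88 to 4.85 in family 1 and from 2.88 to 5.20 in family 2. These put the probes between the 91.2 and 97.5 percentile and between the 91.2 and 98.1 percentile of the analysed probes. Signal depends on how well a probe binds as well as on the RNA, so levels of different probes describe the array and give no order of abundance.

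No member passed the test of geniposide against untreated. In the fit over 29246 probes (limma, Benjamini-Hochberg), 0 of 37 probes had an adjusted p under 0.05, where 0% of all tested probes did. At an unadjusted p under 0.05 there were again 0 of 37, where 12.4% of all tested probes passed. The arrays of the 2 groups overlapped at all 37 probes, while 21.2% of tested probes had groups that did not overlap, 9.70% with geniposide higher. The difference, geniposide minus untreated, was above 0 at all 37 probes, against 45.8% of tested probes. The sign depended on the processing. Family 1 had 0 of 20 probes higher with scaling on spike-in probes, RNAs added in known amount, 11 of 20 with median scaling, 10 of 20 with array weights and 2 of 20 with the slide row as a block. Family 2 had 16, 17, 15 and 15 of 17 higher in these settings. Without geniposide array 3 it was above 0 at 1 of 20 probes of family 1 and 6 of 17 of family 2, and probes of a family are not independent of each other.

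Family 1 varied by single bases around its consensus. The 4 probes printed next are the probe identical to the consensus over 60 bases, which also had the smallest unadjusted p of the family, the brightest probe, the dimmest probe, and a probe with 3 substitutions. Capitals mark the repeated stretches, and the last 2 probes were chosen after their values were seen.
RATLNCRNA_31756: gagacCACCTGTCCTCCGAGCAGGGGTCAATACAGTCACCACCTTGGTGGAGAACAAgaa
RATLNCRNA_10450: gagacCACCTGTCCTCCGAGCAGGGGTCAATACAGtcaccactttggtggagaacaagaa
RATLNCRNA_27622: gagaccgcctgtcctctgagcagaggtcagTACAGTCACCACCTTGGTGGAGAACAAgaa
RATLNCRNA_39241: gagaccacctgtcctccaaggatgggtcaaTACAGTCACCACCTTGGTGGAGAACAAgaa
Substitutions are written with the consensus base first, then the position counted from 1 at the 5′ end of the consensus, then the probe's base. RATLNCRNA_10450 carries C43T alone. RATLNCRNA_27622 carries A7G, C17T, G24A and A30G, and RATLNCRNA_39241 carries G18A, C21G and G23T.

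The probes of family 1 stood 0 to 4 edits from the consensus, 3 of them with no difference over the bases they cover and 1 with a gap. The 19 probes without a gap carried 35 substitutions at 18 positions, of which 25 were transitions. The most frequent, A7G, C17T and C43T, each occurred in 4 probes, and G18A and C37T in 2 each. The consensus held 0 stop codons in each of its 3 reading frames, of 20, 19 and 19 codons. Counting from its first base, 14, 13 and 8 substitutions fell on successive positions of a triplet.

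Probes closer to the consensus tended to be brighter. The 8 probes with 0 or 1 difference had levels from 3.65 to 4.85 with a median of 4.52. The 9 probes with 2 or 3 differences lay between 3.46 and 4.52, with a median of 4.02, and the 3 probes with 4 lay between 2.88 and 4.42, with a median of 3.82. The ranges overlapped. Across the 20 probes, the longest run identical to the consensus and the level gave Pearson's r = 0.66 and Spearman's rho = 0.81. This is a description over probes that share their sequence and the same 6 arrays, chosen after seeing 17 such relations in the family.

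The brightest probe of family 1, RATLNCRNA_10450, read 4.75, 4.80 and 5.11 on geniposide arrays 1, 2 and 3. Untreated arrays 1, 2 and 3 read 4.84, 4.81 and 4.76. Geniposide array 3 alone lay above the untreated range, and the groups overlapped. The means were 4.89 ± 0.195 (SD, n = 3) and 4.80 ± 0.0394 (SD, n = 3). Their difference was 0.08 with a standard error of 0.10 and a 95% interval from -0.16 to 0.32 (limma, adjusted p = 0.751).

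The consensus probe RATLNCRNA_31756 gave the same picture with the smallest p of the family. Its levels were 4.41, 4.48 and 4.78 on the geniposide arrays and 4.44, 4.48 and 4.40 on the untreated arrays, in order of number. Arrays 1 and 2 of the geniposide group lay within 0.04 of the untreated mean, and array 3 lay 0.34 above it. The difference was 0.12 with a standard error of 0.10 and a 95% interval from -0.13 to 0.36 (limma, adjusted p = 0.667).

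The other members moved in step. Per array, the median level over the 20 probes was 4.13, 4.17 and 4.51 in the geniposide group. It was 4.22, 4.20 and 4.15 in the untreated group, in order of number. Geniposide array 3 was the highest of the 6 arrays at 20 of 20 probes, as at 24.8% of all tested probes. The group means of these medians were 4.27 ± 0.208 (SD, n = 3) and 4.19 ± 0.0363 (SD, n = 3), a difference of 0.08. Differences of single probes lay between 0.04 and 0.12, with adjusted p from 0.667 to 0.910 (limma). The 20 probes differed far more in level, with an SD of 0.494, than in difference, with an SD of 0.0266.

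On geniposide array 3 the family stood 0.29 to 0.38 above its untreated mean, with a median of 0.33, or 1.25-fold. Array 1 lay between -0.13 and 0.03 of that mean, and array 2 between -0.09 and 0.04. Without geniposide array 3 the family difference was -0.04. The sign of the excess on array 3 depended on the scaling, and only scaling on spike-in probes put the family below its untreated mean. The median excess was 0.38 with quantile normalization, 0.24 with median scaling, 0.30 with normexp background correction and 0.38 in the authors' deposited table. Every probe of the family lay above its untreated mean in these settings. Before scaling, the median processed intensity of the 20 probes was 7468 on geniposide array 3, below the 7695 of geniposide array 2 and near the 7451 of untreated array 2. Scaled on spike-in probes, the probes lay 0.04 to 0.12 below the untreated mean on array 3, a median of -0.09. The median of all tested probes on that array was then -0.43, against -0.02 in the main scaling. Either scaling shifts all probes of an array alike, so the place of the family among the other probes of the array is the same in both.

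Family 2 joined a fixed element to different sequence. The probes printed here are the brightest, the probe with the smallest unadjusted p, the probe with the highest value on geniposide array 3 relative to untreated, 1 of the 2 probes that hold 39 bases of the element, and the probe that holds 28, the last 3 chosen after their values were seen. The other probe with 39 bases, RATLNCRNA_9704, stood 1.13 above its untreated mean on geniposide array 3, and the one printed 0.89. Capitals mark the repeated stretches, and the bases before them differ from probe to probe.
RATLNCRNA_30813: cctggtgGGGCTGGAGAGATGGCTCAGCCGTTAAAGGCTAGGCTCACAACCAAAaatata
RATLNCRNA_12728: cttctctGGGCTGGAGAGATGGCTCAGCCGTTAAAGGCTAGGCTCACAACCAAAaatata
RATLNCRNA_18269: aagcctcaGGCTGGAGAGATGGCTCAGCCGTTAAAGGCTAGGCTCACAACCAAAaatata
RATLNCRNA_25805: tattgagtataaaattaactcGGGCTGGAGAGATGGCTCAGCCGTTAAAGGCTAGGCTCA
RATLNCRNA_41405: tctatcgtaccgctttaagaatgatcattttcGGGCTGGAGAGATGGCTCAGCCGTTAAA
The first 2 are the members with the smallest unadjusted p over both families, 0.195 and 0.133, and no member was lower in the geniposide group in the main scaling.

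Since the rule asked for identical stretches, positions 2 to 27 of the element are the same in all 17 probes by choice, and variation could be seen only outside them. Over the bases they cover, 10 of 17 probes had no difference from the consensus, and 1 probe had a gap. The 16 probes without a gap carried 7 substitutions of 4 kinds, A48T in 4 probes and G1A, A28G and A33G in 1 probe each. In 11 of 17 probes the repeated part began at base 8, so that 7 bases of other sequence preceded it. There were 13 probes that covered 52 or 53 bases of the consensus, and 4 that covered 28 to 39 because their unrelated upstream part was longer.

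The length of element in the probe went with its level. The 4 probes with the shorter part had levels from 2.88 to 3.77 with a median of 3.07, and the other 13 from 3.52 to 5.20 with a median of 4.50. Across 17 probes, the number of bases identical to the consensus and the level gave Pearson's r = 0.82 and Spearman's rho = 0.84, a description over probes that share their element and arrays, also chosen after seeing 17 relations in the family. The measures of likeness did not give the same picture in both families. Identical bases and level gave r = 0.29 in family 1, and edits from the consensus and level gave r = -0.60 in family 1 and 0.05 in family 2. The measures also count differently. Identical bases were counted without gaps, so RATLNCRNA_21562 of family 1, which has a gap, scored 47 of 60 at 4 edits. Edits were counted only over the bases a probe covers, so the 4 probes of family 2 with the shorter part had 0 edits. GC content moved with level too in family 2, at r = 0.63, but not in family 1, at r = -0.07.

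The brightest probe of the family, RATLNCRNA_30813, read 5.14, 5.02 and 5.93 on geniposide arrays 1, 2 and 3. Untreated arrays 1, 2 and 3 read 4.97, 5.07 and 5.07. Array 3 of the geniposide group stood apart, array 1 also lay above all untreated arrays, and array 2 lay within the untreated range. The means were 5.36 ± 0.492 (SD, n = 3) and 5.03 ± 0.0590 (SD, n = 3). Their difference was 0.33 with a standard error of 0.23 and a 95% interval from -0.22 to 0.87 (limma, adjusted p = 0.586).

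The smallest unadjusted p of all members belonged to RATLNCRNA_12728, whose levels were 4.62, 4.31 and 5.54 on the geniposide arrays and 4.41, 4.25 and 4.28 on the untreated arrays, in order of number. Arrays 1 and 3 of the geniposide group lay above all untreated arrays, and array 2 between them. The difference was 0.51 with a standard error of 0.30 and a 95% interval from -0.20 to 1.22 (limma, adjusted p = 0.529).

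RATLNCRNA_18269 showed the widest gap on a single array. Its levels were 3.54, 3.35 and 5.02 on the geniposide arrays and 3.44, 3.43 and 3.42 on the untreated arrays, so array 3 lay 1.59 above the untreated mean. The 3 untreated arrays had an SD of 0.0105 and the geniposide arrays one of 0.916. The difference of 0.54 had a standard error of 0.41 (limma, adjusted p = 0.620).

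The same array was high in every probe of family 2. Per array, the median level over the 17 probes was 4.28, 4.18 and 5.49 in the geniposide group. It was 4.33, 4.25 and 4.21 in the untreated group, in order of number. Geniposide array 3 was the highest at 17 of 17 probes. The group means of these medians were 4.65 ± 0.726 (SD, n = 3) and 4.26 ± 0.0587 (SD, n = 3), a difference of 0.39 that is smaller than the spread within the geniposide group. Differences of single probes ran from 0.08 to 0.54, with standard errors from 0.14 to 0.41, intervals that reached from -0.45 to 1.53 and adjusted p from 0.529 to 0.839 (limma). Without geniposide array 3 the family difference was -0.03.

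On geniposide array 3 the probes of family 2 stood 0.41 to 1.59 above their untreated mean, with a median of 1.20, or 2.29-fold. On array 1 they lay between -0.04 and 0.30 of it, with a median of 0.07. On array 2 all lay below it, by 0.01 to 0.15, and 14 of 17 probes were below every untreated array, as were 31.6% of all tested probes. With scaling on spike-in probes the family lay between -0.03 and 0.11 on array 2, with a median of 0.03. Unlike in family 1, the processed intensity before scaling showed it too, with a median of 14692 on geniposide array 3, against 7788 and 7773 on geniposide arrays 1 and 2 and 6853 to 7728 in the untreated group. Scaled on spike-in probes, the median excess was 0.78, and the lowest probe lay at -0.00124. In the other 4 scalings and background corrections, the authors' deposited table among them, the median lay between 1.11 and 1.23.

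Within family 2, the shorter element also went with the smaller excess. The 4 probes that held 28 to 39 bases were 0.41, 0.73, 0.89 and 1.13 above the untreated mean on array 3, with a median of 0.81. The 13 probes with 52 or 53 bases lay between 0.89 and 1.59, with a median of 1.22. RATLNCRNA_41405, with the shortest part, had levels of 2.80, 2.69 and 3.26 on the geniposide arrays and 2.83, 2.82 and 2.87 on the untreated arrays, and so held the smallest excess of the family. The number of identical bases and the excess gave Pearson's r = 0.80 but Spearman's rho = 0.42 over the 17 probes.

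Few other probes of like brightness behaved so on geniposide array 3. Among the 3091 other tested probes between the dimmest and the brightest of family 2, the median excess was -0.08 and the 1 to 99 percentile range ran from -0.40 to 0.33. Of these, 11 reached the lowest value of family 2 and 2 its median. Among the 2831 such probes for family 1, the 99 percentile was also 0.33, 44 reached the lowest value of the family and 30 its median. These windows were chosen after the values were seen. Only the members were left out of them, so related probes outside the rule were counted. The 44 include the 5 probes related to family 1, and the 11 include RATLNCRNA_39029, which is related to family 2.

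Among those probes of like brightness, 3 had an excess above 1 on geniposide array 3, and they are printed because they moved with family 2 there.
RATLNCRNA_29840: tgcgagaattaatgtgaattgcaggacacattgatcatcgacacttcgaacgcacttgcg
RATLNCRNA_37530: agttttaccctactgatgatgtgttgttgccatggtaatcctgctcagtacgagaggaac
RATLNCRNA_2481: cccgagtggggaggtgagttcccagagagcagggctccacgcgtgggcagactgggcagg
The files name no gene for them. By textbook knowledge the first and second read as ribosomal RNA, which is not polyadenylated and makes up most of total RNA. Relative to the untreated mean, RATLNCRNA_29840 stood at -0.11, -0.19 and 1.51 on geniposide arrays 1, 2 and 3. RATLNCRNA_37530 stood at -0.33, -0.10 and 1.31, and RATLNCRNA_2481 at -0.39, 0.12 and 1.03. All 3 had an excess above 1 on array 3 alone. They were picked by this value, and their part in the excess of the members was not tested. The members were also highest on array 3. On array 1 the median excess of the members was 0.07 in family 2 and -0.08 in family 1. Whether the 3 probes and the members differ was not tested.

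The position of the spots was measured as well. The 27 spots of family 1 lay between rows 9 and 379 of 384, and the 24 spots of family 2 between rows 9 and 370. In each family 7 probes had 2 spots, and the spots of a probe differed by at most 0.10 in family 1 and 0.26 in family 2 on geniposide array 3. The spots within 2 rows and columns of the members, 396 and 347 of them, had a median excess of -0.01 and -0.00443 there. The 6 arrays sat on 1 slide, with geniposide arrays 2 and 3 alone in row 2. The median excess on array 2 was -0.04 in family 1 and -0.09 in family 2, and 0.08 and 0.03 with scaling on spike-in probes. Within row 1, which held geniposide array 1 and the 3 untreated arrays, the difference was -0.05 for family 1 and 0.02 for family 2. In the setting with array weights, which are lower for arrays that depart more from their group over all tested probes, geniposide array 3 had the lowest, 0.29. The other arrays had 0.72 to 2.11. What set geniposide array 3 apart was not tested. In bulk RNA, more cells carrying a transcript and more transcript per cell cannot be told apart.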

How the data were processed

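Total RNA of 6 INS-1 samples was labelled with Cy3 and read on 1-colour Agilent arrays. The deposited spot intensity values were made, per the file headers, with version 12.0.3.1 of Agilent Feature Extraction, with background subtracted and a spatial trend removed; the submitters' processing notes name version 10.7, and limma without its use. The authors also deposited a log2 table, whose normalization is not given in the sources used here, and which served as an alternative. Probes were grouped with Python 3.11.15 from the sequence printed in the deposited files, joining probes that share a repeated stretch; the grouping was tested on simulated data. The members, lists and tests were chosen with earlier results of these data known.

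Levels are log2 processed intensity minus the 75th percentile of the array, averaged over spots. Marked spots were left out, and a probe needed an unmarked spot on each array. Probes well above background on all 3 arrays of a group were tested, 29246 of 45718, with limma 3.58.1 in R 4.3.3 (lmFit, eBayes, group as the sole term, two-sided, Benjamini-Hochberg over all tested probes, threshold 0.05). The fit was tested on simulated data. With 3 arrays a group, array number limits the precision. Printed probes are, per family, the brightest and that with the smallest unadjusted p, and the 2 members with the smallest unadjusted p in each direction; others are named as chosen afterwards. Alternatives were background correction, scaling, filters, spot marks, variance model, array weights, slide row, replicate block, leaving out each array, and the stretch length and number of the member rule. Promoter sequences are from RefSeq, assembly GRCr8. Marker lists of cell types could not be applied, since probes carry no gene names.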

Additional observations from a re-analysis of the deposited data

How the results depend on the processing

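No alternative gave a member an adjusted p under 0.05. The count over all probes tested, 0 in the main fit, became 126 with scaling on spike-in probes, 3 with normexp, 1 with probes well above background on all 6 arrays, 173 with trend and robust variance, 54 with array weights and 1 with slide row as fixed block. Leaving out 1 array gave 0 to 1. At an unadjusted p under 0.05, leaving out 1 array gave 0 to 1 members (1 without geniposide array 2), and the rule of more than 5 probes gave 2. The median difference stayed within 1 SD between arrays of its main value in every setting, but its sign changed. That SD, 0.149 in family 1 and 0.515 in family 2, is larger than the differences themselves, 0.08 and 0.39. Staying within it therefore does not show that the difference is stable. Leaving out 1 array gave -0.04 to 0.15 in family 1 and -0.03 to 0.62 in family 2, lowest without geniposide array 3. Spike-in scaling gave -0.04 and 0.26, array weights 0.01 and 0.07, the row block -0.05 and 0.02. No sign was seen that replicate numbers pair the arrays, though with 3 arrays a group the check cannot exclude it. Deviations from the group mean gave r from -0.10 to 0.02 between same-numbered arrays and from -0.07 to 0.08 between the others. The replicate block left the differences at 0.08 and 0.39. RATLNCRNA_10450 reversed to -0.0415 with spike-in scaling, -0.0565 with the row block and -0.0292 without geniposide replicate 3, and RATLNCRNA_31756 to -0.00872 and -0.0341 with the first and second. A stretch of 30 bases left 15 probes in 1 family, more than 5 probes gave 56 in 4 families, and more than 20 left 0 probes and 0 families. Limits of 9 and 8 probes, added after seeing the data, changed nothing. Every member lay above a common detection limit.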

Other observations

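Probes just outside the rule carried related sequence. For family 1 there were 5, with an identical run of 19 to 27 bases, levels from 3.17 to 4.14, and an excess on geniposide array 3 of 0.31 to 0.41, inside or slightly above the range of the members. With a limit of more than 7 probes, 1 of these, RATLNCRNA_10926, would join the family, at a level of 4.13 and a difference of 0.09.

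For family 2 there were 21 such probes on the same strand, 17 of them tested, with runs of 13 to 24 bases. They were sought after the members' values were seen. The member rule requires an unbroken stretch, so that these probes either hold less of the element or carry substitutions in it. On geniposide array 3 the 17 tested probes lay between -0.33 and 1.10 of their untreated mean, with a median of 0.17, and 3 of them lay below it. Their levels ran from -3.85 to 5.85, much of this below the members. Capitals mark the substitutions in 4 of them.
RATLNCRNA_36895: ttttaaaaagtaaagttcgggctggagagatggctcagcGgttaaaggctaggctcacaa
RATLNCRNA_39029: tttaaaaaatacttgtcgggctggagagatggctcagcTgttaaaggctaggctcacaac
RATLNCRNA_706: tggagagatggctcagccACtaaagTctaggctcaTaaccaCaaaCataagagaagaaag
RATLNCRNA_38247: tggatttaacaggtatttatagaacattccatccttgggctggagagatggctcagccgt
These show how wide the spread was. RATLNCRNA_36895 covers 42 bases with C22G as its sole change and had levels of 5.79, 5.74 and 6.06 on the geniposide arrays, and of 5.89, 5.82 and 5.79 without treatment. Its excess on geniposide array 3 was 0.23. RATLNCRNA_39029 covers 43 bases with C22T and stood 0.65 above the untreated mean at a level of 4.64. RATLNCRNA_706 covers 49 bases with 6 substitutions and had the highest excess of the 17, 1.10, at a level of -3.19. RATLNCRNA_38247 holds 24 unchanged bases and stood 0.17 above at a level of 2.04. No feature of the sequence was tested against the excess, and the difference from the members was not tested.

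On the opposite strand, 2 tested probes matched family 2 in part. RATLNCRNA_11027, with a run of 23 bases, was well above background on 5 of 6 arrays at a level of -4.94. RATLNCRNA_29666, with a run of 12 bases, was so on 6 arrays at a level of -3.63 and stood 0.14 above its untreated mean on geniposide array 3. Both were far dimmer than the members.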
